A study of Mus musculus with 10 samples.

Results

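Thymic epithelial genes were examined in whole-thymus RNA of Usp7 knockout and wild-type mice. The 10 genes, chosen by name as known genes of cortical or medullary thymic epithelium and looked up by Ensembl identifier, were Foxn1, Psmb11, Prss16, Ctsl, Krt8, Aire, Krt5, Krt14, Trp63 and Epcam. All 10 of 10 were among the 35375 features of the count table, and all 10 had enough counts to be kept among the 19511 features tested. The libraries came from C57BL/6J mice 3 days after birth. Usp7, which encodes a deubiquitinating enzyme, was knocked out in the hematopoietic system on both alleles (homozygous KO, n = 3) or on 1 allele (heterozygous KO, n = 3), and a wild-type group had n = 4. The series describes 2 wild types as cre-induced and 2 as not, without saying which library is which, and the promoter that drove the cre is not given in the sources used here. In the count table the columns of wild-type replicates 3 and 4 carry the word het after wt, and what it stands for is not stated. Their titles and genotype labels read wild type, which was kept. Epithelial cells are not blood cells, so the knockout as labelled did not target epithelium. Which cells of the organ transcribed each of the 10 genes was not tested. In RNA of a whole organ, fewer cells of a type and less RNA per cell cannot be told apart.

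The thymus matures T cells on a scaffold of epithelial cells. In the outer cortex, epithelium that depends on the transcription factor FOXN1 carries the Notch ligand and the proteases that make the peptides for positive selection. In the inner medulla, epithelium receives signals of the TNF receptor family from lymphocytes, and the regulator AIRE drives genes of many peripheral tissues there for the deletion of self-reactive T cells. Keratin 8 is typical of cortical cells, and keratins 5 and 14 are typical of medullary cells and of their progenitors.

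The libraries held 39.8 to 122 M counts, so that 3 counts, the number a count of 0 still allows, correspond to 0.0753 CPM in the smallest and 0.0245 CPM in the largest (counts per 1000000 library counts, CPM, with TMM scaling in all values that follow). Such limits cover counting error only. Usp7 itself averaged 633 CPM in wild type (SD 47.2, n = 4), 501 CPM in heterozygous KO (SD 25.4, n = 3) and 377 CPM in homozygous KO (SD 65.1, n = 3), without overlap between the groups. The lowest wild type had 589 CPM and the highest heterozygous KO library 516 CPM. Homozygous KO replicate 3 stood apart for the epithelial genes. It exceeded the mean of replicates 1 and 2 by more than 1.5-fold in 9 of the 10 genes, against 8.0% of all features tested, and values without it are given beside the results. The labels number the animals 44 to 51 and 56 to 63, and what this numbering stands for is not stated. Homozygous KO had 1 library with a number from 44 to 51, heterozygous KO 1 and wild type 3, and differences within each block are given where 1 of the 10 genes passed the test. The labels give no sex, and Xist was over 10 CPM in 1 of 3 homozygous KO, 0 of 3 heterozygous KO and 3 of 4 wild-type libraries. A fit with Xist as a term kept the 4 calls described below.

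Promoter sequence from RefSeq (GRCm38.p6) was matched for 8 of the 10 genes, all but Trp63 and Prss16. The 150 bases before the start site are shown for Aire, which fell in homozygous KO, for Krt5, which rose, and for Psmb11, a target of FOXN1 that did not pass the test. Capitals mark 3 motifs searched on both strands of the 250 bases before each start: the core of the TATA box, TATAAA, the binding core of FOXN1, which reads GACGC or from the opposite strand GCGTC, and the E-box, CANNTG. No marked motifs overlap each other in these windows. The windows are chr10:78043611-78043760 on the minus strand for Aire, chr15:101712906-101713055 on the minus strand for Krt5 and chr14:54625160-54625309 on the plus strand for Psmb11. Distances are from the RefSeq start. In the GENCODE M21 annotation Psmb11 spans chr14:54621433-54629556, so its window lies inside that span and not before it.
Aire: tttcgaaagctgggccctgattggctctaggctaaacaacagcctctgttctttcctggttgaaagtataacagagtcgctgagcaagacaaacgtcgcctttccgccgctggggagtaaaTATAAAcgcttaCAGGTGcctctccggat
Krt5: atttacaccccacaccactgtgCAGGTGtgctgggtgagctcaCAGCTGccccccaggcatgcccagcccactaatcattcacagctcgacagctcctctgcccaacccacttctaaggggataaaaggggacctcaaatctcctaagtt
Psmb11: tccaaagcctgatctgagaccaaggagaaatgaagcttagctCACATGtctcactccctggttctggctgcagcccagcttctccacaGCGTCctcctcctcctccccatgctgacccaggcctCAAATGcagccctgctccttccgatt

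Among the 8 promoters, TATAAA occurred in that of Aire alone, 29 bases before the start. Of 32851 such windows in the RefSeq table, 12.4% held it on either strand. The GACGC core began 62 and 239 bases before the start in Psmb11 and 189 bases before it in Aire, and 22.6% of all windows held it. An E-box was in all 8, the nearest of Krt5 107 bases before the start, and in 66.2% of all windows. A match describes letters in a window and is not evidence of binding.

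In homozygous KO against wild type, the keratins Krt5 and Krt14 were higher and Aire was lower. The transcription factor Foxn1 and most cortical genes did not pass the test. Krt5 rose to 694% of the wild-type mean, Krt14 to 587% and Ctsl to 156%, and Aire fell to 19.7%. In edgeR's quasi-likelihood test, with a call at a Benjamini-Hochberg adjusted p under 0.05 over all features tested, 4 of the 10 genes were called, 3 higher and 1 lower. Over all 19511 features 25.8% were called in this comparison, 12.5% higher and 13.2% lower. For Aire, Krt5 and Krt14 the groups did not overlap, as for 32.7% of all features, and the 4 called genes were also those with an unadjusted p under 0.05, as were 37.4% of all features. The median log2 fold change of the 10 genes was 0.34, against -0.01 over all features tested, and single genes ranged from -2.37 to 2.77. Without homozygous KO replicate 3 the calls were 2, Krt5 and Aire.

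**Figure D1:**
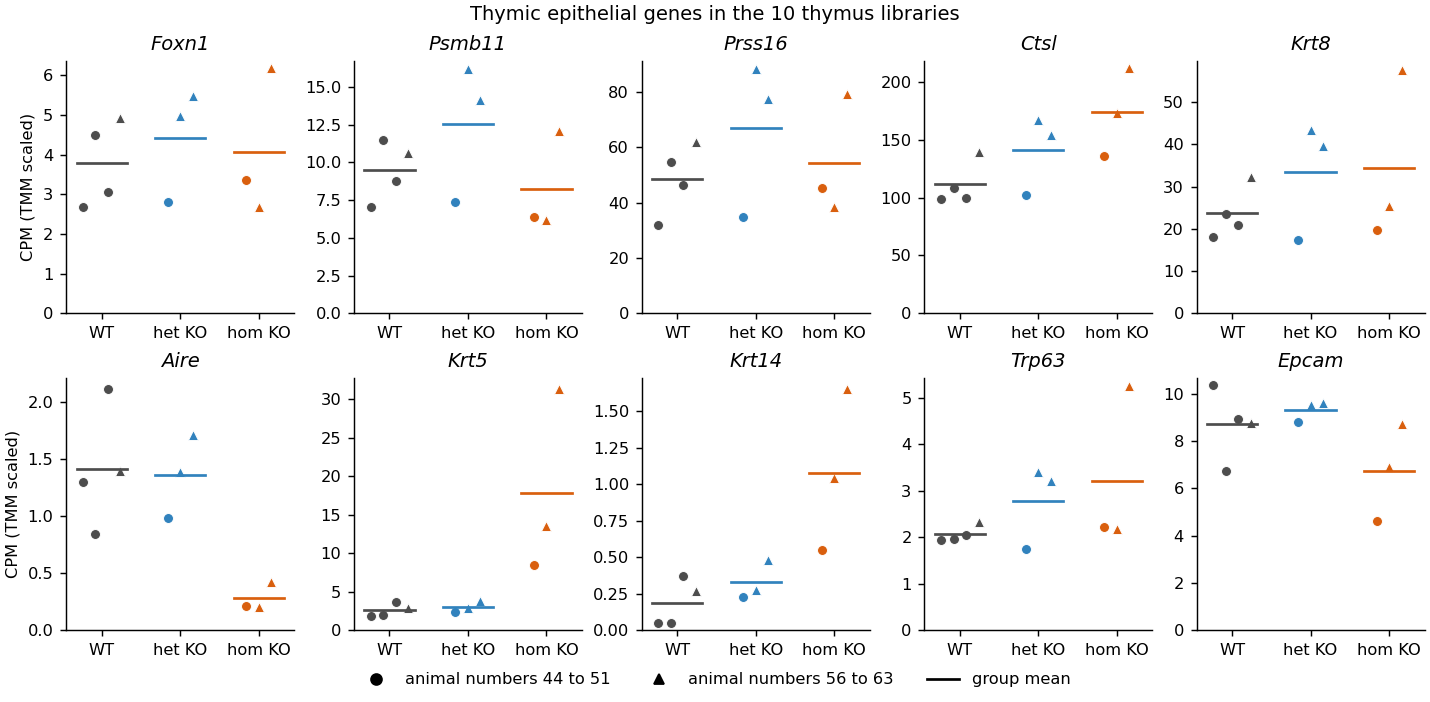
CPM (TMM scaled) of the 10 genes in each of the 10 libraries, by group, with the group mean as a line; circles are animals numbered 44 to 51 and triangles those numbered 56 to 63. The homozygous KO libraries lie above all others for Krt5 (8.44 to 31.3 CPM) and Krt14 (0.547 to 1.65 CPM) and below all others for Aire (0.205 to 0.421 CPM).

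Krt5 encodes the type II keratin that forms filaments with keratin 14 in basal epithelial cells. Its level was 1.84, 1.93, 3.65 and 2.82 CPM in the wild-type libraries, 2.36, 2.86 and 3.74 CPM in heterozygous KO and 8.44, 13.5 and 31.3 CPM in homozygous KO. Every homozygous KO library was above every other library, and replicate 3 was 2.85-fold above the mean of the other two. Homozygous KO exceeded wild type by 2.77 on the log2 scale (SE 0.40, edgeR adjusted p = 0.000552), a 6.84-fold difference with a 95% interval of 1.89 to 3.66 on the log2 scale. An exact two-sided permutation test over the libraries gave p = 0.0286, the smallest that 35 splits allow. Without homozygous KO replicate 3 the log2 fold change was 2.09 (edgeR adjusted p = 0.000955). Within animals numbered 44 to 51 the log2 difference was 1.83, and within those numbered 56 to 63 it was 2.86.

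Krt14, the type I partner of Krt5, was the scarcest of the 10 genes in wild type, with 0.0491, 0.0481, 0.371 and 0.266 CPM. Wild-type replicates 1 and 2 held 2 counts each, which is at the floor of counting. Heterozygous KO libraries had 0.23, 0.272 and 0.479 CPM, and homozygous KO libraries had 0.547, 1.04 and 1.65 CPM. The lowest homozygous KO library was thus above the highest of the others. On the log2 scale the rise was 2.39 (SE 0.60, edgeR adjusted p = 0.0131), with a 95% interval of 1.08 to 3.71, and the exact permutation p was 0.0571. The call was lost without homozygous KO replicate 3 (log2 fold change 1.96, edgeR adjusted p = 0.0559). It was also lost against wild-type replicates 3 and 4 alone, whose titles hold 1 wt word (1.75, edgeR adjusted p = 0.0665), while against the other 2, which are the shallow libraries, the log2 fold change was 4.42. Within the animal-number blocks the log2 differences were 2.16 and 2.20.

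Aire, the regulator of tissue-restricted antigens in the medulla, went the other way. Wild-type libraries had 1.30, 0.842, 2.12 and 1.4 CPM and heterozygous KO libraries 0.98, 1.39 and 1.71 CPM, but homozygous KO libraries had 0.208, 0.205 and 0.421 CPM. The highest homozygous KO library was below the lowest of the other 7. The fitted log2 difference from wild type was -2.37 (SE 0.39, edgeR adjusted p = 0.00129), a 5.16-fold lower level with a 95% interval of -3.23 to -1.51, and the exact permutation p was 0.0286. Homozygous KO replicate 3, which was high for the epithelial genes, was also the highest of its group for Aire, and without it the log2 fold change was -2.78. Within the animal-number blocks the log2 differences were -2.54 and -2.16. Exons of Aire overlap those of Dnmt3l on the opposite strand, whose own level was 0.0788 to 0.217 CPM in wild type and 0.0174 to 0.0391 CPM in homozygous KO. Whether the counting used strand is not given in the sources used here, and Dnmt3l itself did not pass the test (log2 fold change -2.19, SE 0.77, edgeR adjusted p = 0.0592).

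Trp63 encodes p63, a transcription factor of basal and stratified epithelium that thymic epithelial progenitors need. Its 4 wild-type values were close together, at 1.94, 1.97, 2.05 and 2.33 CPM. Heterozygous KO had 1.74, 3.41 and 3.21 CPM and homozygous KO 2.22, 2.18 and 5.26 CPM, so that the groups overlapped and the higher mean of homozygous KO came from replicate 3. In homozygous KO against wild type its log2 fold change came to 0.63 (SE 0.33, edgeR adjusted p = 0.188) and 0.09 without that library.

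Foxn1, the transcription factor on which thymic epithelium depends, had 2.68, 4.50, 3.07 and 4.91 CPM in wild type, 2.81, 4.97 and 5.48 CPM in heterozygous KO and 3.36, 2.67 and 6.18 CPM in homozygous KO. The 3 groups overlapped. Homozygous KO differed from wild type by 0.10 on the log2 scale (SE 0.33, edgeR adjusted p = 0.853), with a 95% interval of -0.63 to 0.83. That interval leaves room for differences of either sign, and without homozygous KO replicate 3 the value was -0.33 (edgeR adjusted p = 0.524).

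Psmb11 encodes the catalytic thymoproteasome subunit beta5t, which cortical epithelium alone uses. Its values were 7.05, 11.5, 8.76 and 10.6 CPM in wild type, 7.36, 16.2 and 14.1 CPM in heterozygous KO and 6.36, 6.20 and 12.1 CPM in homozygous KO. Replicates 1 and 2 of homozygous KO were below every wild type, and replicate 3 was above every wild type. The difference from wild type was -0.21 on the log2 scale (SE 0.30, edgeR adjusted p = 0.654), with a 95% interval of -0.87 to 0.46, and it was -0.59 without replicate 3 (edgeR adjusted p = 0.192).

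Prss16 encodes the thymus-specific serine protease of cortical epithelium, a protease that takes part in presentation to CD4+ T cells. Wild types had 32.1, 54.8, 46.3 and 61.8 CPM, heterozygous KO 35, 88.4 and 77.5 CPM and homozygous KO 45.3, 38.3 and 79.3 CPM. The groups overlapped, with means of 48.7, 66.9 and 54.3 CPM. A log2 fold change of 0.15 was fitted for homozygous KO (SE 0.33, edgeR adjusted p = 0.768; 95% interval -0.57 to 0.88), and it was -0.22 without replicate 3.

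Ctsl, which encodes cathepsin L, a lysosomal protease needed in cortical epithelium for the selection of CD4+ T cells, was the only gene called among the 5 cortical ones. The values were 98.3, 108, 100 and 139 CPM in wild type, 102, 167 and 154 CPM in heterozygous KO and 136, 173 and 212 CPM in homozygous KO. The lowest homozygous KO library was below the highest wild type, so the groups overlapped. The rise in homozygous KO was 0.64 on the log2 scale (SE 0.19, edgeR adjusted p = 0.0283; 95% interval 0.23 to 1.05), and the exact permutation p was 0.0857. This call was lost under 7 of 18 alternatives, among them leaving out homozygous KO replicate 2 or 3 or 1 of the wild-type replicates 1 to 3, with adjusted p up to 0.198. The log2 difference of Ctsl was 0.47 without homozygous KO replicate 3 (edgeR adjusted p = 0.119). Within the animal-number blocks the log2 differences were 0.41 and 0.46. Ctsl is also transcribed in macrophages, and its exons overlap a processed pseudogene and an antisense feature, neither of which was matched in the count table.

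Krt8, the keratin of simple epithelium and of cortical thymic cells, had 18.1, 23.6, 21.0 and 32.3 CPM in wild type, 17.4, 43.5 and 39.7 CPM in heterozygous KO and 19.8, 25.4 and 57.7 CPM in homozygous KO. Replicates 1 and 2 of homozygous KO lay inside the wild-type range and replicate 3 far above it. The log2 difference of homozygous KO from wild type was 0.53 (SE 0.38, edgeR adjusted p = 0.345; 95% interval -0.31 to 1.36) and -0.07 without replicate 3.

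Epcam encodes an adhesion molecule of all thymic epithelium. Its level was 10.4, 6.74, 8.94 and 8.79 CPM in wild type, 8.82, 9.55 and 9.61 CPM in heterozygous KO and 4.63, 6.90 and 8.73 CPM in homozygous KO. Homozygous KO replicate 1 was below every other library, while replicates 2 and 3 lay within the wild-type range. The difference was -0.37 on the log2 scale (SE 0.20, edgeR adjusted p = 0.204; 95% interval -0.81 to 0.07), and -0.59 without replicate 3 (edgeR adjusted p = 0.0553).

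**Figure D2:**
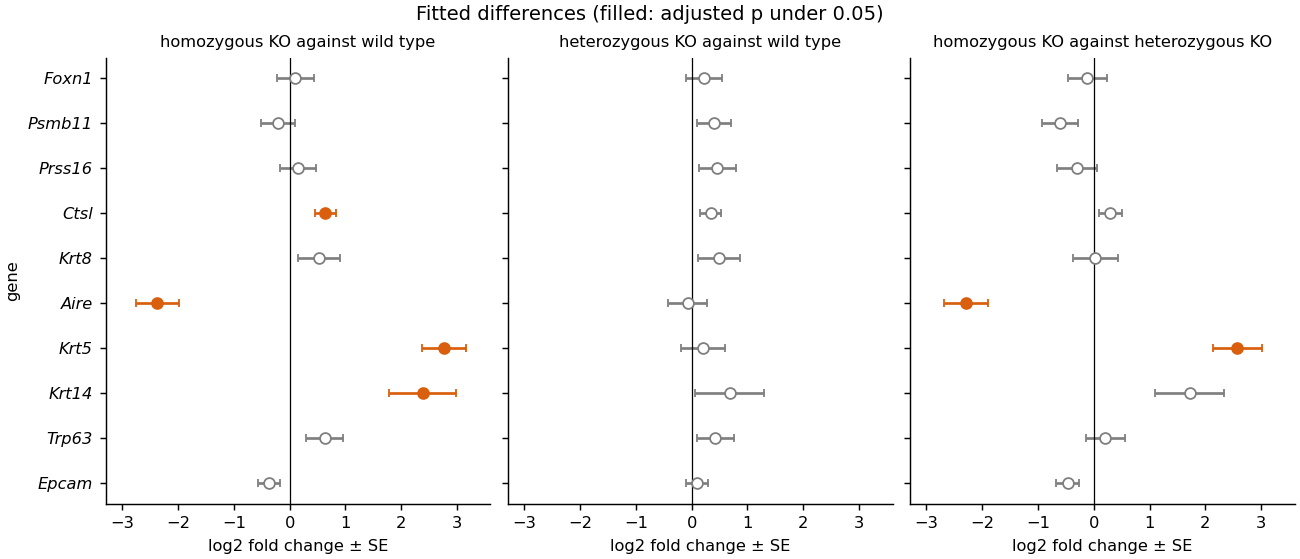
Log2 fold change with its standard error from the edgeR fit for the 10 genes in the 3 comparisons; filled points have an adjusted p under 0.05. Krt5 (2.77), Krt14 (2.39), Ctsl (0.64) and Aire (-2.37) were called in homozygous KO against wild type, no gene in heterozygous KO against wild type, and Krt5 (2.57) and Aire (-2.29) in homozygous against heterozygous KO.

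In heterozygous KO against wild type none of the 10 genes was called by edgeR, none had an unadjusted p under 0.05 (7.28% of all features had), and DESeq2 called 0 as well. Over all features 0.0154% were called in this comparison. The groups overlapped for all 10 genes, while 8.69% of all features showed no overlap. The log2 fold changes were between -0.07 for Aire and 0.68 for Krt14, positive for 9 of the 10 genes, with a median of 0.37 against -0.01 over all features tested. In a fit that also held the animal-number block, they ran from -0.26 for Aire to 0.31 for Krt14 and were positive for 6 of the 10. Heterozygous KO replicates 2 and 3, both numbered 56 to 63, were above replicate 1 for every one of the 10 genes. The 95% interval for Krt5 was -0.68 to 1.08 and that for Aire was -0.84 to 0.70, so that neither interval reached the estimates of homozygous KO.

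In homozygous against heterozygous KO, Krt5 was again higher and Aire again lower. These were the 2 genes called of 10, against 17.1% of all features, 7.63% higher and 9.5% lower. This comparison shares its homozygous KO libraries with the first and is not independent of it. Krt5 differed by 2.57 on the log2 scale (SE 0.44, edgeR adjusted p = 0.00216) and Aire by -2.29 (SE 0.40, edgeR adjusted p = 0.00256). Within animals numbered 44 to 51 and 56 to 63 the log2 differences were 1.83 and 2.65 for Krt5 and -2.11 and -2.30 for Aire. Krt14 differed by 1.72 (SE 0.62, edgeR adjusted p = 0.0855) and was not called. Epcam, at -0.47 (SE 0.21, edgeR adjusted p = 0.171), was not called either, although its groups did not overlap. The groups did not overlap for 4 genes, Aire, Krt5, Krt14 and Epcam, as for 33.3% of all features, 4 had an unadjusted p under 0.05 in edgeR, as had 28.8% of all features, and the exact permutation p of 0.1 for each is the smallest that 20 splits allow. Psmb11 differed by -0.61 (SE 0.32, edgeR adjusted p = 0.241). Without homozygous KO replicate 3 the Krt5 difference was 1.88 (edgeR adjusted p = 0.00356), the Aire difference was -2.71 (edgeR adjusted p = 0.00257), and Epcam was called as well (-0.70, edgeR adjusted p = 0.0485).

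Levels can be compared between the genes after division by exon length, as TPM, a length-scaled share of all transcripts, computed from the counts and the GENCODE exon lengths. In wild type the order was Ctsl (63.2 ± 10.9 TPM), Krt8 (44.6 ± 11.5), Prss16 (42.8 ± 11.2), Epcam (14.6 ± 2.63), Psmb11 (7.27 ± 1.48), Foxn1 (4.34 ± 1.23), Krt5 (4.28 ± 1.41), Aire (1.36 ± 0.504), Trp63 (0.909 ± 0.0809) and Krt14 (0.384 ± 0.337), each mean ± SD with n = 4. The ranges of neighbours overlapped for Ctsl with Krt8, Krt8 with Prss16, Psmb11 with Foxn1, Foxn1 with Krt5 and Aire with Trp63. Ctsl, Krt8 and Prss16 gave at wild-type means of 42.8 to 63.2 TPM more RNA per length than the medullary genes Krt5, Aire and Krt14, at 0.384 to 4.28 TPM. The other cortical genes, Psmb11 and Foxn1, were at 7.27 and 4.34 TPM, and the range of Foxn1 overlapped that of Krt5. In homozygous KO, Krt5 moved from rank 7 to rank 4 (26.7 ± 19.1 TPM, SD, n = 3), and Aire moved from rank 8 to rank 10 (0.238 ± 0.117 TPM, SD, n = 3). The order in heterozygous KO was that of wild type. With the length of the longest transcript in place of all exons, Prss16 (44.4 TPM) came before Krt8 (34.8 TPM) in wild type.

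Ratios of 2 genes within a library do not depend on the scaling between libraries. The 6 ratios were compared in 3 comparisons, and none of the 18 passed an adjusted p of 0.05 in the exact permutation tests, where the smallest adjusted p was 0.171. The design limits these exact permutation tests, since 3 against 4 libraries cannot go below p = 0.0286. The log2 ratio of Krt5 to Krt8 was -3.29, -3.61, -2.52 and -3.51 in wild type, -2.88, -3.92 and -3.41 in heterozygous KO and -1.23, -0.91 and -0.88 in homozygous KO. Homozygous KO replicate 3 was not apart from its group in this ratio. The difference of homozygous KO from wild type was 2.23 (exact p = 0.0286), and the groups did not overlap.

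Relative to both a medullary and a cortical gene, Aire was lower in every homozygous KO library than in any other. Krt14, the medullary gene used, was itself higher in homozygous KO, so its ratio is not separate from that rise. It also held only 2 counts in each of wild-type replicates 1 and 2. The log2 ratio of Aire to Krt14 was 3.28 ± 1.01 (SD, n = 4) in wild type, 2.07 ± 0.25 (SD, n = 3) in heterozygous KO and -1.88 ± 0.47 (SD, n = 3) in homozygous KO. That of Aire to Foxn1 was -1.03, -2.40, -0.54 and -1.80 in wild type, -1.51, -1.83 and -1.68 in heterozygous KO and -3.98, -3.67 and -3.86 in homozygous KO, a difference of -2.39 from wild type without overlap (exact p = 0.0286). In Aire to Krt14, heterozygous KO also lay below wild type without overlap, by a log2 difference of -1.2 (exact permutation p = 0.114). In Aire to Foxn1 these groups overlapped.

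The ratios between cortical genes differed less between the groups. Prss16 to Foxn1 had a log2 ratio of 3.69 ± 0.15 (SD, n = 4) in wild type, 3.87 ± 0.26 (SD, n = 3) in heterozygous KO and 3.76 ± 0.08 (SD, n = 3) in homozygous KO. For Psmb11 to Foxn1 the log2 ratio was 1.34 ± 0.17 (SD, n = 4), 1.48 ± 0.19 (SD, n = 3) and 1.03 ± 0.16 (SD, n = 3), and the homozygous KO libraries (0.92, 1.21 and 0.97) were all below the heterozygous KO libraries (1.39, 1.70 and 1.36). That difference of -0.45 had an exact permutation p of 0.1. Foxn1 to Epcam differed by 0.45 between homozygous KO and wild type, within the spread of the libraries (SD 0.51 and 0.63).

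**Figure D3:**
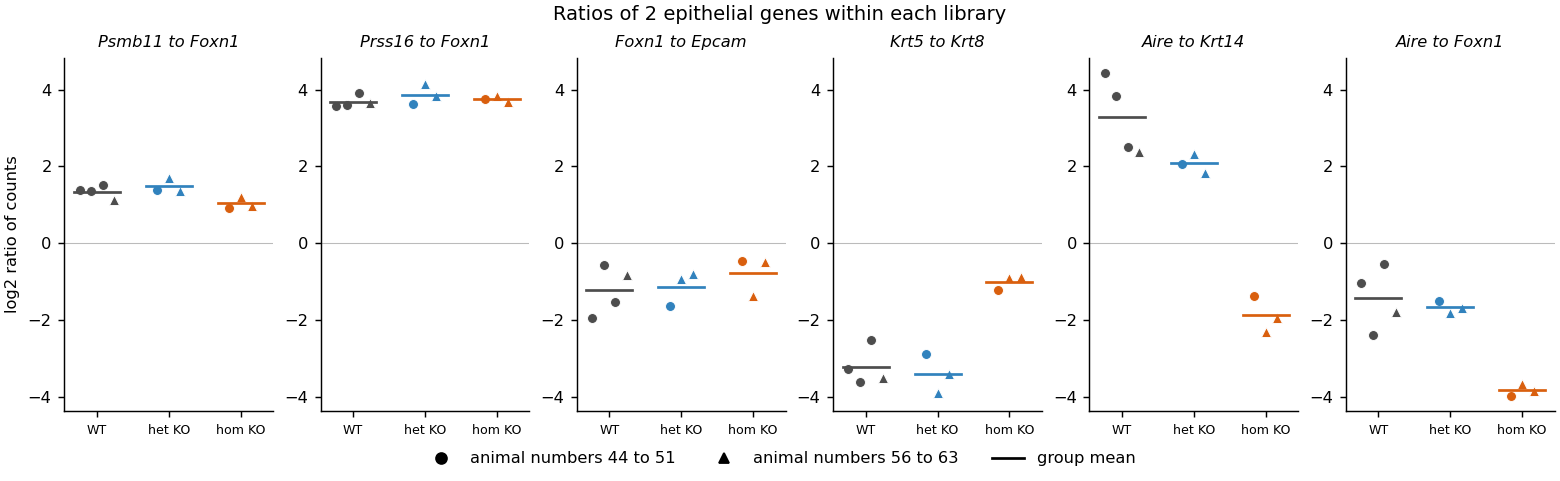
Log2 ratio of the counts of 2 genes in each library (0.5 added to each count), for 6 ratios on 1 scale, by group, with the group mean as a line; circles are animals numbered 44 to 51 and triangles those numbered 56 to 63. Homozygous KO lies apart for Krt5 to Krt8 (mean -1.01 against -3.23 in wild type), Aire to Krt14 (-1.88 against 3.28) and Aire to Foxn1 (-3.84 against -1.44), and not for Prss16 to Foxn1 (3.76 against 3.69).

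Across the 10 libraries, Pearson's r of log2 CPM among the cortical genes Foxn1, Psmb11, Prss16 and Krt8 was 0.78 to 0.94, highest for Foxn1 with Prss16 and lowest for Psmb11 with Krt8. The fifth cortical gene, Ctsl, had r = 0.85 with Krt8, 0.66 with Prss16, 0.60 with Foxn1 and 0.39 with Psmb11. Trp63 had r = 0.94 with Krt8 and 0.65 with Psmb11. Krt5 and Krt14 had r = 0.89, Aire and Epcam 0.77, and Aire and Krt5 -0.71, while Aire and Foxn1 had only 0.19. With every gene but Aire, Epcam had r from -0.33 for Krt5 to 0.45 for Psmb11, with 0.18 for Foxn1. The 3 groups are pooled in these values, which are descriptions over libraries that share the group differences and the animal-number blocks.

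**Figure D4:**
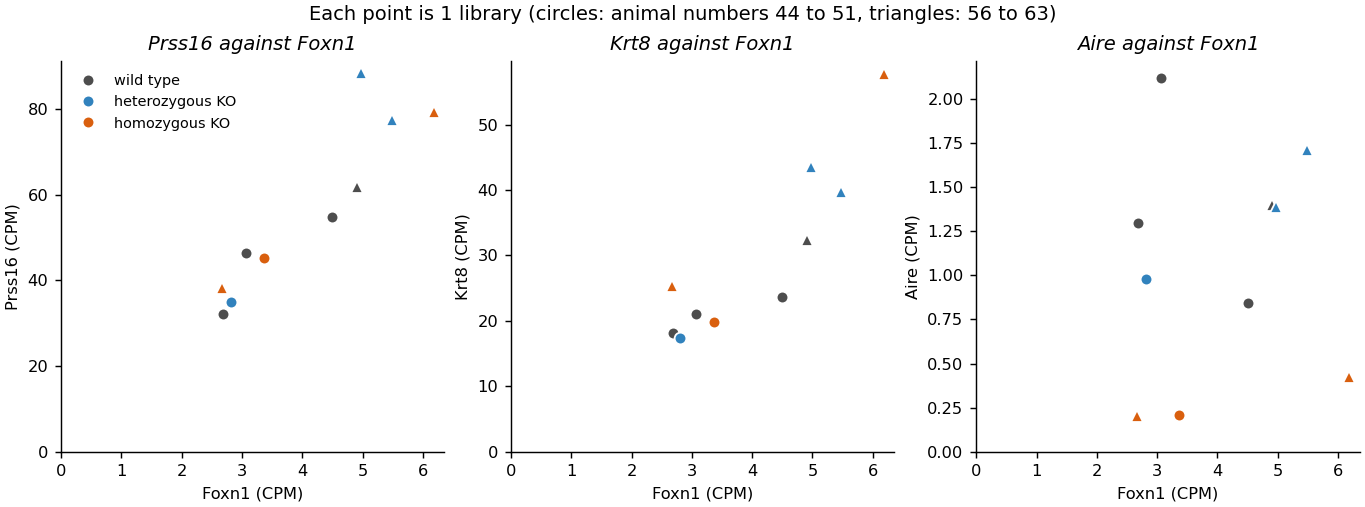
Prss16, Krt8 and Aire against Foxn1, all in CPM (TMM scaled), 1 point per library, coloured by group; circles are animals numbered 44 to 51 and triangles those numbered 56 to 63. Prss16 and Krt8 follow Foxn1 over all groups (r = 0.94 and 0.88 on the log2 scale), while Aire does not (r = 0.19), with the 3 homozygous KO libraries at the bottom.

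By the same measure over 10 libraries, the 5 genes most like Foxn1 were Lrp4 (r = 0.962), Six4 (0.951), Gprc5c (0.95), Prss16 (0.943) and Rbfox2 (0.941). Those most like Psmb11 were Snap91 (0.961), Mmp2 (0.959), Mreg (0.951), Hpgd (0.947) and Shisal1 (0.941). For Ctsl they were Dsc3 (0.959), which encodes a desmosomal cadherin, Olfml1 (0.957), Ube2j2 (0.956), Dnal4 (0.956) and Dusp4 (0.952). For Epcam they were Tbc1d30 (0.948), Kif26b (0.941), Stpg1 (0.938), Serpinf1 (0.937) and Fer1l6 (0.915). Among the 5 genes most like Aire were Fcgr1 (0.985), which encodes a myeloid receptor for IgG, Mab21l3 (0.982), Myrfl (0.97) and Irf5 (0.969), a transcription factor of myeloid and B cells. Fcgr1 averaged 0.721 CPM in wild type, 0.791 CPM in heterozygous KO and 0.177 CPM in homozygous KO. Myrfl averaged 0.667, 0.58 and 0.0735 CPM. Whether Aire RNA came from epithelium or from blood cells was not tested.

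Of the 19 genes of the wider cortical list that were tested, 2 were called in homozygous KO against wild type, Ctsl higher and Cd83, a surface protein of cortical epithelium and dendritic cells, lower (8.67 to 4.05 CPM on average, log2 fold change -1.10, SE 0.28, edgeR adjusted p = 0.0149). Without homozygous KO replicate 2 neither was called. The median log2 fold change of the list was 0.18 against -0.01 over all features tested. Over all features 25.8% were called in this comparison, 12.5% higher and 13.2% lower. These values over all features also stand beside the counts and medians of each list below. Krt18, the partner of Krt8, had 0.55 (SE 0.36, edgeR adjusted p = 0.292). Dll4, the Notch ligand of cortical epithelium and a FOXN1 target, had -0.51 (SE 0.39, edgeR adjusted p = 0.371). Ccl25 and Hoxa3 of this list were not matched in the count table and were not analysed here.

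The medullary list moved in both directions. Of its 15 genes tested 9 were called, 4 higher and 5 lower, with a median log2 fold change of -0.21, and without homozygous KO replicate 3 the calls were 5. Besides Krt5 and Krt14, the higher genes were Krt17, another basal keratin (0.95, SE 0.31, edgeR adjusted p = 0.0434), and Cd80, a costimulatory ligand (0.64, SE 0.20, edgeR adjusted p = 0.0397). Besides Aire, the lower genes were Cldn4, Cd40, Tnfrsf11a and Krt10. Cldn4, a tight-junction claudin, fell from 21.8, 22.5, 23.9 and 25.3 CPM in wild type to 4.59, 4.15 and 4.43 CPM in homozygous KO (-2.41, SE 0.10, edgeR adjusted p = 1.23e-07). It averaged 23.4 CPM in wild type, against 1.42 CPM for Aire, and which cells of the organ transcribed it was not tested. Krt10, a keratin of terminally differentiated cells, fell by 0.67 on the log2 scale (SE 0.21, edgeR adjusted p = 0.0359). Fezf2, another regulator of tissue-restricted antigens, had -0.21 (SE 0.47, edgeR adjusted p = 0.776). Several genes of the list are also expressed by other cells of the organ, Cd40 and Cd80 by B cells and dendritic cells among them. In homozygous against heterozygous KO 6 of the 15 were called, 1 higher and 5 lower, against 17.1% of all features.

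Of the 15 genes of general epithelium 1 was called, Krt19, a keratin of simple and progenitor epithelium. It had 0.169 to 0.315 CPM in wild type, 0.098 to 0.25 CPM in heterozygous KO and 0.677, 2.15 and 1.77 CPM in homozygous KO (log2 fold change 2.68, SE 0.44, edgeR adjusted p = 0.00123). The 15 genes had a median of 0.41. Without homozygous KO replicate 1, 4 of them were called. Cdh1, which encodes E-cadherin, had -0.32 (SE 0.16, edgeR adjusted p = 0.161).

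Since Krt5 and Krt14 rose, all keratin genes tested and a list for stratified squamous epithelium were added after their values were seen. Of 25 keratin genes 10 were called, 8 higher and 2 lower, with a median log2 fold change of 0.83, and 7 without homozygous KO replicate 3. The higher keratins besides those named were Krt6a, Krt6b, Krt23 and Krt75. Krt6a, a keratin of activated and stratified epithelium, had 0.27, 0.0481, 0.416 and 0.0242 CPM in wild type and 1.31, 2.60 and 2.53 CPM in homozygous KO (3.44, SE 0.66, edgeR adjusted p = 0.00324). Krt87, a hair keratin, was lower, with 0.265 to 0.442 CPM in wild type and 0.00978 to 0.0443 CPM in homozygous KO (-3.81, SE 0.52, edgeR adjusted p = 0.000366). Keratins have similar sequences, and reads shared between them could be split or dropped by the counting.

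**Figure D5:**
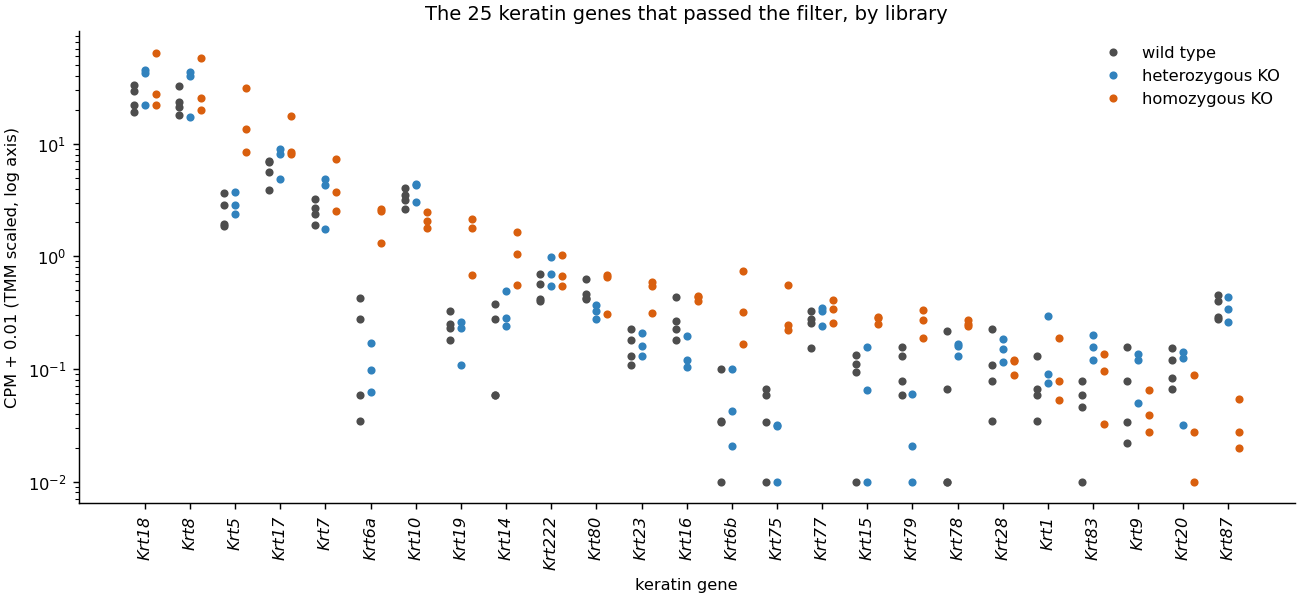
CPM + 0.01 (TMM scaled, log axis) of the 25 keratin genes that passed the filter, ordered by their homozygous KO mean, with 1 point per library coloured by group. Krt8 and Krt18 overlap between the groups, while the homozygous KO points of Krt5, Krt6a, Krt14 and Krt19 lie above the other points and those of Krt87 below them.

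Of the 10 squamous genes tested 5 were called, all higher, with a median log2 fold change of 1.01. Besides Krt6a they were Sprr1a and Krtdap, genes of the cornifying epidermis (1.95, SE 0.37, edgeR adjusted p = 0.00316 and 1.75, SE 0.50, edgeR adjusted p = 0.0256), Dmkn (1.43) and the calmodulin-like Calml3 (2.45). All 5 averaged under 3 CPM in each group. Calml3 had 0, 0.0241 and 0.0242 CPM in wild-type replicates 1, 2 and 4, below the level that 3 counts correspond to there. It had 0.135 CPM in replicate 3 and 0.312, 0.293 and 0.299 CPM in homozygous KO. Between 2 and 5 of the 10 were called when single libraries were left out, 2 of them when wild-type replicate 2 and 3 when wild-type replicate 4 or homozygous KO replicate 2 was absent. Krt1 and Col17a1 were not called.

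Ligands of the TNF family on lymphocytes act on medullary epithelium. Cd40lg, the ligand of CD40 on mature CD4+ T cells, was the 1 of 4 called. It had 4.86, 4.91, 7.62 and 2.67 CPM in wild type, 4.31, 3.59 and 3.33 CPM in heterozygous KO and 1.43, 0.45 and 0.144 CPM in homozygous KO (log2 fold change -2.87, SE 0.60, edgeR adjusted p = 0.00511). Tnfsf11, which encodes RANKL, had 7.99 to 22.4 CPM in wild type and 5.30 to 23.6 CPM in homozygous KO (0.36, SE 0.50, edgeR adjusted p = 0.634). The lymphotoxin genes Lta (-0.19, edgeR adjusted p = 0.643) and Ltb (0.08, edgeR adjusted p = 0.858) were not called.

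Of 10 receptors and NF-kB components 4 were called, all lower. Cd40 fell from 1.62, 1.90, 2.07 and 2.62 CPM to 0.434, 0.254 and 0.787 CPM (-2.07, SE 0.36, edgeR adjusted p = 0.00184). Tnfrsf11a, the receptor for RANKL, fell by 0.84 on the log2 scale (SE 0.21, edgeR adjusted p = 0.013). Relb, the NF-kB subunit without which medullary epithelium does not form, fell by 0.81 (SE 0.21, edgeR adjusted p = 0.0166), and Map3k14, the kinase NIK upstream of it, fell by 0.52 (SE 0.09, edgeR adjusted p = 0.00142). Ltbr (0.11), Traf6 (0.17), Traf2 (0.04), Traf3 (-0.15), Nfkb2 (-0.06) and the decoy receptor Tnfrsf11b (-0.57) were not called. These genes are transcribed in blood cells as well as in epithelium.

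Of the tissue-restricted antigens only 2 of 15 had enough counts to be tested. Csn2, a milk casein gene and a target of AIRE, had 0.638, 0.409, 0.371 and 0.556 CPM in wild type, 0.34, 0.869 and 0.773 CPM in heterozygous KO and 0.182, 0.0782 and 0.122 CPM in homozygous KO (-1.92, SE 0.44, edgeR adjusted p = 0.00827). The 3 homozygous KO values were the lowest of the 10. Tff3, a trefoil peptide gene, had -1.90 (SE 0.81, edgeR adjusted p = 0.112) and was called without homozygous KO replicate 3. Of the other antigens Spt1 was not matched in the count table, and 12, Ins2 and Mup1 among them, had counts too low for a test. Of 9 tuft and other mimetic-cell genes 2 were called, Gp2 of microfold cells (2.28, SE 0.64, edgeR adjusted p = 0.0229) and Gnat3 of taste and tuft cells (1.84, SE 0.59, edgeR adjusted p = 0.0398), both higher and both under 2 CPM in every library. Both calls were lost without wild-type replicate 2 or replicate 4.

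Psmb11 and Ctsl were set beside their gene families. Among the 6 proteasome catalytic subunits tested, the constitutive Psmb6 (0.26, SE 0.07, edgeR adjusted p = 0.0225) and Psmb7 (0.33, SE 0.06, edgeR adjusted p = 0.00182) were higher and the immunosubunit Psmb10 (-0.24, SE 0.08, edgeR adjusted p = 0.0493) was lower, all by less than 1.5-fold. Without homozygous KO replicate 3 or wild-type replicate 2, 1 of the 6 was called. Of the 10 lysosomal proteases 6 were called, and Ctsl was the one that rose. Ctss, the cathepsin of antigen-presenting cells, fell from 19.0 to 23.2 CPM in wild type to 5.71 to 6.33 CPM in homozygous KO (-1.78, SE 0.11, edgeR adjusted p = 1.59e-06). Lgmn fell by 1.30 (SE 0.23, edgeR adjusted p = 0.00179) and Ctsh by 0.99 on the log2 scale (SE 0.18, edgeR adjusted p = 0.00213), with Ctsz and Ctsc also lower. Ctsb, Ctsd, Ctsk and Ctsa were not called.

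Markers of other cells moved in the same comparison, and their part in the results on epithelial genes was not tested. All 8 dendritic-cell genes were lower in homozygous KO, with a summed level of 18.2 to 26.7 CPM against 70.4 to 103 CPM in wild type. Of 10 macrophage genes 8 were lower, with sums of 44 to 71.9 CPM against 75.8 to 110 CPM. Of 9 fibroblast genes 4 were higher, the collagens Col1a1 (1.36), Col1a2 (1.66) and Col3a1 (1.55) and Lum (2.03), and Pdgfrb was lower (-0.85), with sums of 19.9 to 57.5 CPM against 27.9 to 39.6 CPM. Leaving out single libraries gave 1 to 5 fibroblast calls, with 1 without homozygous KO replicate 2 or wild-type replicate 1. Of 7 endothelial genes Vwf alone was called, higher by 2.35 on the log2 scale, and 0 were called without homozygous KO replicate 2 or wild-type replicate 1 or 4.

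The libraries could also hold neighbouring tissue. None of 1 parathyroid, 4 thyroid and 2 airway genes tested was called, and Pth, Gcm2, Sftpc and Nkx2-1 did not pass the filter on low counts. The summed thyroid genes were 5.76 to 9.44 CPM in wild type and 5.81 to 6.56 CPM in homozygous KO. Of 10 genes of double-positive thymocytes, the main cell of the organ, 5 were called, Cd8a (0.26) and Arpp21 (0.38) higher and Rag1 (-0.85), Dntt (-0.46) and Cd1d1 (-0.26) lower, and 3 without homozygous KO replicate 3 or wild-type replicate 1 or 2. The summed erythroid genes varied from 230.0 to 2250 CPM within homozygous KO alone, and 1 of 7, Epor, was called, or 2 without replicate 3. In heterozygous KO against wild type no gene of any list named above was called.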

How the data were processed

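Total RNA of whole thymus, depleted of ribosomal RNA, was sequenced as stranded libraries from 10 mice, and the authors deposited 1 table of raw read counts per gene. The submitters' processing notes name CASAVA, STAR 2.4.1d, HTSeq 0.6.1p1 and the build NCBIM37 (mm9), with no role or order. The study's methods describe a BWA-based pipeline with a human reference and counting with HTSeq. The annotation release and strand setting are not given in the sources used here. Columns were assigned by the animal and library numbers shared with the titles. Positions, exon lengths and overlaps come from GENCODE M21 (GRCm38), and gene names there may differ from those used for counting.

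Counts were tested with edgeR 4.0.16 (R 4.3.3): filterByExpr, TMM scaling, glmQLFit and glmQLFTest (quasi-likelihood), in 1 fit over all 10 libraries. A call needed a Benjamini-Hochberg adjusted p under 0.05 over 19511 features. The standard error is the absolute log2 fold change divided by the root of F. Correlations used log2 CPM with a prior count of 2, and ratios added 0.5 to each count. Alternatives were DESeq2 1.42.0, other scalings and filters, 3 added terms, subsets of wild types and leaving out each library. The script was tested on simulated data. The 12 pairs of libraries within groups differed by more than sampling noise (chi-square per degree of freedom 13.5 to 117). Nothing states that replicates came from separate litters, so p-values set group differences against the spread between these animals alone. The members and lists were chosen with earlier results of these data known. Named are all 10 members, Usp7, called list genes with the largest changes (at most 5 per direction), the ligands and receptors, and the 5 genes most like Foxn1, Psmb11, Aire, Ctsl and Epcam, of which 1 is not reported here. Other genes are named where a count or a contrast turns on them, and were chosen after their values were seen.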

Additional observations from a re-analysis of the deposited data

How the results depend on the processing

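Aire and Krt5 kept their direction and their call under all 18 alternatives of homozygous KO against wild type, with log2 fold changes of -2.78 to -1.95 and 2.09 to 3.23, and under all 15 of homozygous against heterozygous KO. The 4 calls in homozygous KO against wild type became 2 against the wild types with 1 wt word in the title, and 2 to 4 when single libraries were left out. The cause was not tested. With a mean CPM of at least 1 as the filter, Krt14 was not tested. No gene was called in heterozygous KO against wild type under any alternative. The replicate numbers do not pair the animals: deviations of same-numbered libraries correlated with r = -0.104 to 0.225, and not every library correlated best with its own number. With the replicate block the calls were 4, 0 and 3, since Krt14 was then called in homozygous against heterozygous KO (1.67, edgeR adjusted p = 0.0253), as it was by DESeq2 (1.72, adjusted p = 0.0438).

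Signs changed only for genes that were never called in the comparison concerned. In homozygous KO against wild type the animal-number block gave -0.13 for Foxn1 and -0.12 for Prss16, and the Xist term gave 0.05 for Psmb11. Leaving out single libraries gave -0.33 to 0.33 for Foxn1, -0.22 to 0.36 for Prss16 and -0.07 to 0.80 for Krt8. In heterozygous KO against wild type the animal-number block gave -0.05 for Foxn1, -0.10 for Krt5 and -0.02 for Epcam. Aire was 0.34 with the Xist term and 0.34 against the wild types with 2 wt words, and Krt5 was -0.12 against those with 1. Leaving out single libraries gave -0.27 to 0.19 for Aire and -0.01 to 0.19 for Epcam. In homozygous against heterozygous KO the Xist term gave -0.12 for Trp63 and -0.41 for Krt8, and library totals alone gave -0.04 for Krt8. Leaving out single libraries gave -0.55 to 0.11 for Foxn1, -0.34 to 0.42 for Trp63 and -0.57 to 0.30 for Krt8. Under the Xist term Psmb11 was called in that comparison (-0.93, edgeR adjusted p = 0.0457), and under the animal-number block Ctsl was (0.31, edgeR adjusted p = 0.0163). Depth limits Krt14 most, with 2 counts in wild-type replicates 1 and 2.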
